A study of Mus musculus with 12 samples.

Results

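Mechanosensitive ion channels open when the membrane that holds them is stretched, bent or swollen, and most of them let calcium into the cell. The levels of 8 such channel genes, Piezo1, Piezo2, Trpv2, Trpv4, Trpm7, Tmem63a, Tmem63b and Pkd2, were followed in mouse macrophages that had been kept on stiff plastic or inside collagen gels. The 8 genes were picked by symbol out of 34327 genes in the table, and all 8 were found. The cells were bone marrow-derived macrophages (BMDMs), differentiated in L929-conditioned medium from wild-type C57BL/6 marrow (C57BL/6J in the methods). They were kept for 24 hours on tissue culture (TC) plates, in low-collagen gels (2 mg/ml rat tail collagen I) or in high-collagen gels (7 mg/ml), each without cytokine (untreated) or with IL-4 at 20 ng/ml. There were 12 libraries, 2 for each of the 6 conditions. The gels floated in the well, away from its stiff floor, so plates and gels differ in stiffness, in dimension and in contact with collagen at once, and these cannot be told apart. RNA was released by breaking up whole gels in RNA-Bee and by lysing cells in the well on plates, and the effect of that handling cannot be told apart from that of the substrate.

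The PIEZO proteins are large cation channels that open directly under membrane tension. PIEZO1 is the member known from blood, vessel and immune cells, and PIEZO2 is best known from touch-sensing neurons. TRPV2 and TRPV4 are calcium-permeable channels of the vanilloid branch of the TRP family, with TRPV2 linked to phagocytosis in macrophages and TRPV4 to osmotic swelling. TRPM7 joins a magnesium- and calcium-conducting pore to a kinase, TMEM63A and TMEM63B belong to the OSCA/TMEM63 family of stretch-gated channels, and PKD2 (polycystin-2) is a TRP-like channel of cilia and the endoplasmic reticulum.

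All libraries carried the macrophage genes. The 8 macrophage markers were each above 1 TPM (a transcript level scaled by transcript length and by library total), and their summed level was 17541 to 53953 TPM. The 7 fibroblast markers were each under 1 TPM in every library, at most 0.474 TPM. Of the endothelial markers, Kdr was at 5.11 TPM on untreated TC plates and 1.01 TPM or less in the means of the gel conditions. Of 6 granulocyte markers 3 reached a mean of 1 TPM and the other 3 stayed at 0.482 TPM or less. Their summed level was 3.65 to 8.46 TPM on plates and 9.54 to 18.7 TPM in gels, and 5 dendritic cell markers summed to 3.15 to 4.90 TPM on untreated plates, 11.1 to 13.8 TPM on plates with IL-4, 5.60 to 9.93 TPM in untreated gels and 34.2 to 54.7 TPM in gels with IL-4, with Batf3 the only one to reach a mean of 1 TPM. The 5 epithelial markers summed to at most 0.500 TPM untreated and 3.71 to 7.49 TPM with IL-4, where Cdh1 alone reached a mean of 1 TPM. Whether these marker transcripts came from other cell types was not tested. Neither was any part of other cells in the differences between gels and plates and with IL-4. The summed level of 4 IL-4 response genes, Arg1 among them, was 357.2 to 449.7 TPM in the untreated libraries and 5155 to 19385 TPM in those with IL-4, so each library carried the IL-4 state of its label. Total TPM was 997505 to 997977 per library, and 11543 to 11910 genes reached 1 TPM. TPM do not keep the number of reads, so the depth behind each value is unknown. Replicates of a condition correlated at Pearson r = 0.980 to 0.985 on log2(TPM + 1).

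Of the 8 channel genes, 7 were expressed and 1 was not. Piezo2 stayed under 1 TPM in every library, at 0 in 5 of the 12 and at most 0.160 TPM, which was too low to test. Trpv2 was the most abundant, with a mean of 106.0 TPM over the 12 libraries and above 88.4% of the genes whose mean reached 1 TPM. Piezo1 followed at 62.8 TPM, then Trpm7 at 36.9 TPM, Tmem63a at 24.4 TPM, Tmem63b at 18.1 TPM, Pkd2 at 11.7 TPM and Trpv4 at 7.80 TPM, which was above 26.3% of those genes. On TC plates, with and without IL-4, this order held and no neighbours in it overlapped between libraries. In untreated gels Piezo1 came down to the level of Trpm7, with overlapping libraries in both low- and high-collagen gels. With IL-4 it stayed above Trpm7 without overlap in both. Tmem63b and Pkd2 overlapped in untreated low-collagen gels, Trpm7 and Tmem63a in untreated high-collagen gels, and Pkd2 and Trpv4 in high-collagen gels with IL-4. In low-collagen gels with IL-4 Pkd2 lay below Trpv4 with no overlap.

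**Figure D1:**
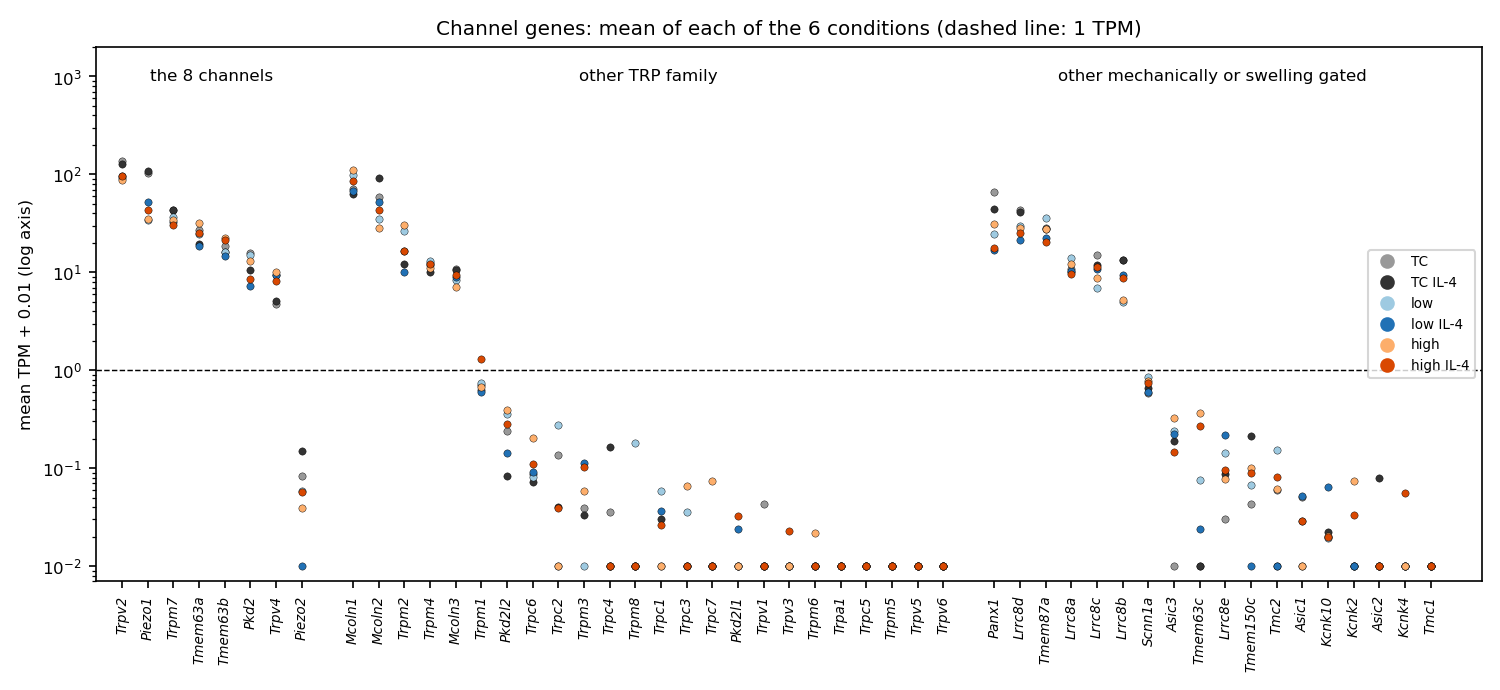
Mean TPM plus 0.01 on a log axis for 50 channel genes, one point per condition (grey and black, TC plates without and with IL-4; light and dark blue, low-collagen gels; light and dark orange, high-collagen gels), for the 8 channels, 24 other TRP family genes and 18 other mechanically or swelling gated channels. Apart from Piezo2, the 8 channels lie well above the dashed line at 1 TPM, whereas most genes of the other lists lie below it.

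The summed level of the 8 channels was 350.8 ± 9.63 TPM (SD, n = 2) on untreated TC plates and 329.6 ± 4.76 TPM on TC plates with IL-4. In the gels it was lower, with condition means of 228.1 to 234.3 TPM and no library above 244.1 TPM. The sum was not rescaled for the lower TPM of most genes in gels, which is described below. The channels did not change alike. From untreated plates to untreated low-collagen gels the mean of Piezo1 fell from 103.8 to 34.2 TPM and that of Trpv2 from 137.4 to 92.2 TPM. That of Trpv4 rose from 4.75 to 9.46 TPM. Piezo1 made up 29.6% of the sum on untreated TC plates and 15.1% in untreated high-collagen gels, while the share of Trpv2 was 39.2% and 37.3%.

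**Figure D2:**
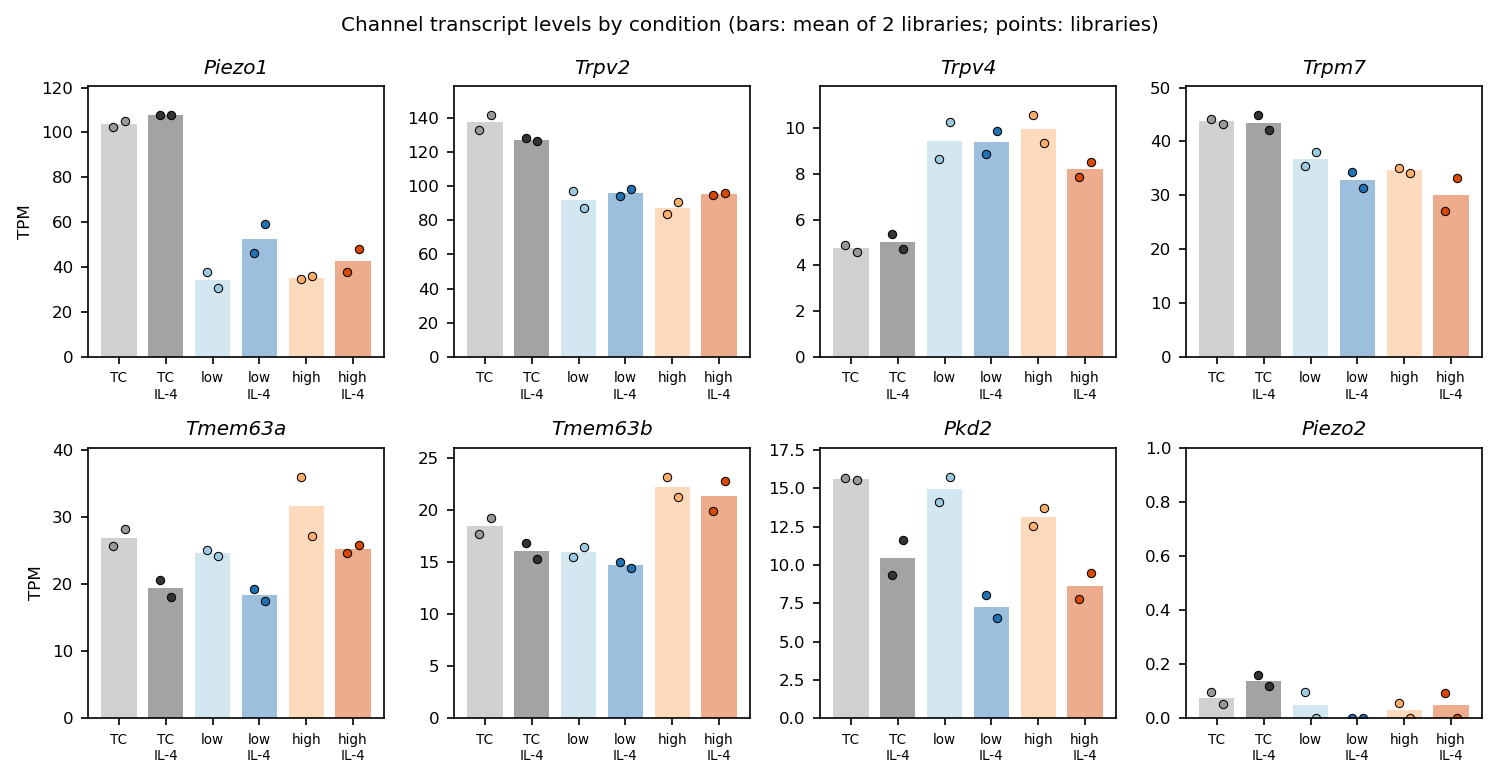
TPM of each channel in the 6 conditions, untreated and with IL-4, on TC plates and in low- and high-collagen gels. Bars are the mean of 2 libraries and points are the libraries. Piezo1 and Trpv2 are higher in every plate library than in any gel library, and Trpv4 is lower in every plate library than in any gel library. Piezo2 is drawn on an axis to 1 TPM.

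Differences were tested with limma on log2(TPM + 1) over all genes with a mean of at least 1 TPM, with Benjamini-Hochberg adjustment over those genes, and calls were made below an adjusted p of 0.2, the level used for these data by the study. Fold changes are on the log2(TPM + 1) scale, which understates those of low genes such as Trpv4. Nothing in the labels says that the 2 libraries of a condition came from separate animals or cultures, so the p-values measure only the spread between these libraries, and an exact permutation test of 2 against 2 libraries could not go below p = 0.33. In bulk RNA, fewer cells of a type and less RNA per cell cannot be told apart.

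Gels and plates differed across the whole transcriptome, and the call background is high. Without IL-4, 28.5% of 11865 genes were called higher and 44.3% lower in low-collagen gels than on TC plates. In high-collagen gels 28% were called higher and 45.5% lower. With IL-4 the shares were 22.8% higher and 52.2% lower in low-collagen gels, and 26.5% higher and 48.1% lower in high-collagen gels. Over all genes the log2 fold change had a median of -0.13 and -0.28 in low-collagen gels and -0.16 and -0.20 in high-collagen gels (without and with IL-4), so these TPM are lower in gels for most genes. Rescaling each library by its median ratio to the average library, which moved that median to 0.02 or less, evened the calls to 4397 higher and 4270 lower, 4316 and 4238, 4392 and 4352, and 4464 and 4314 in the same 4 comparisons. Each change of a single channel against plates is therefore given with its rescaled value. Where gel and plate libraries are said not to overlap, this is in TPM before rescaling. The share of all genes without such overlap was not counted. Among the 7 channels tested, 5 were called in low-collagen gels (1 higher, 4 lower) both without and with IL-4, and 7 in high-collagen gels (3 higher, 4 lower) both without and with IL-4. After rescaling these became 1 higher and 2 lower, 3 higher and 1 lower, and, in high-collagen gels, 3 higher and 3 lower with or without IL-4. The comparisons of the low- and high-collagen gels with plates share the plate libraries, so they are not independent of each other.

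Piezo1 was the channel with the largest log2 fold change between plates and gels in all 4 comparisons, and after rescaling in 3 of them (in low-collagen gels with IL-4 Trpv4 then had the larger one, 1.06). It stood at 102.7 and 105.0 TPM on untreated TC plates, and at 107.6 and 107.8 TPM on TC plates with IL-4. In untreated gels it was at 37.9 and 30.6 TPM (low collagen) and 34.7 and 35.9 TPM (high collagen). In gels with IL-4 it was at 46.1 and 59.3 TPM (low collagen) and 37.7 and 48.0 TPM (high collagen). No gel library reached the level of a plate library. The mean was 3.03-fold lower in low-collagen gels and 2.94-fold lower in high-collagen gels than on plates without IL-4, with log2 fold changes of -1.58 (SE 0.144, 95% interval -1.90 to -1.26, adjusted p = 9.4e-06, limma) and -1.53 (SE 0.144, -1.85 to -1.21, adjusted p = 1.1e-05). With IL-4 the mean was 2.04-fold lower in low-collagen gels and 2.51-fold lower in high-collagen gels, with log2 fold changes of -1.03 (adjusted p = 0.00017) and -1.32 (adjusted p = 3.1e-05). After rescaling, the 4 values were -1.41, -1.34, -0.71 and -1.08, all still called.

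Piezo1 lies on chromosome 8, 122481698 to 122551329 on the minus strand (GRCm38), and its exons overlap those of Ctu2, a gene for tRNA thiolation on the opposite strand. Of all 31-base stretches of the Piezo1 transcripts, 23.3% also occur in Ctu2 transcripts, and of those in its longest coding transcript, 14.8%. The kallisto options stated for these files name no strand setting, so reads from that stretch could be assigned to either gene. Ctu2 itself was at 16.7 and 30.9 TPM on untreated TC plates and 40.2 and 47.1 TPM on plates with IL-4, and at 5.46 to 17.8 TPM in the gel libraries. Its log2 fold change in gels against plates was -0.92 and -1.25 (low collagen, without and with IL-4) and -1.78 and -1.90 (high collagen), all called. Ctu2 thus moved with Piezo1 between plates and gels, and its part in the Piezo1 values was not tested. The 2 genes did not move alike throughout: Ctu2 was called lower in high- than in low-collagen gels, by 0.86 without IL-4 (adjusted p = 0.071) and by 0.66 with IL-4 (adjusted p = 0.065) on the log2 scale, where Piezo1 was not called.

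**Figure D3:**
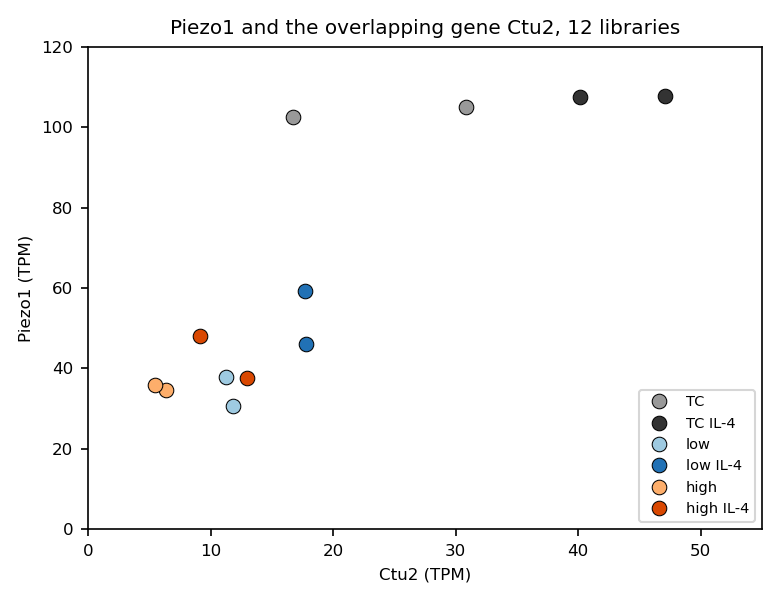
Piezo1 TPM against Ctu2 TPM in the 12 libraries, coloured by condition (grey and black, TC plates without and with IL-4; blue, low-collagen gels; orange, high-collagen gels). The 4 plate libraries stand at 102.7 to 107.8 TPM of Piezo1 over a range of 16.7 to 47.1 TPM of Ctu2, and the 8 gel libraries stand below 60 TPM of Piezo1 and below 18 TPM of Ctu2.

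The 250 bases before the start of Piezo1 and of Trpv4 are shown because these channels had the largest changes between plates and gels, in opposite directions. The sequences are those of RefSeq on GRCm38.p6, read 5′ to 3′ along the gene, from chr8:122551330-122551579 (minus strand) for Piezo1 and chr5:114658422-114658671 (minus strand) for Trpv4. Capitals mark a TATAAA, which was looked for on the printed strand only. On that strand it occurs in 7.6% of 32851 windows of this length.
Piezo1: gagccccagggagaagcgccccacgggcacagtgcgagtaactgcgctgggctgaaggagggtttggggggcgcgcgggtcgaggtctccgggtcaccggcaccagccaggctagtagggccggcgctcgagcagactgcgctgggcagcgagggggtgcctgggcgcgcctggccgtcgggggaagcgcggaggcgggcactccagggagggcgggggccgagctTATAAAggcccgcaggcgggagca
Trpv4: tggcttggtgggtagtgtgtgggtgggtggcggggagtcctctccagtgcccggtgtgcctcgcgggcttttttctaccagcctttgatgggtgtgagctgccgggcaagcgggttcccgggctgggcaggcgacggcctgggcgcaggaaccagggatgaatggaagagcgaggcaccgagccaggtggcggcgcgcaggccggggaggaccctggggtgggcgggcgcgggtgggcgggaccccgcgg
Both windows were rich in G and C, at 74.0% for Piezo1 and 72.0% for Trpv4, and held 26 and 22 CG pairs. Windows of 7 of the 8 channels were searched, Trpv2 having 3, and Piezo2 was left out of the search. Neither a STAT6-type site (TTC and GAA with 4 bases between them), the kind bound by the transcription factor that IL-4 activates, nor an AP-1 site (TGAGTCA) was in any of the 9 windows on either strand. The first occurs in 5.9% and the second in 4.5% of all windows. Some windows reach into annotated exons of their own gene: all 250 bases of the Tmem63b window and 174 of the Tmem63a window are exonic. Smaller parts of the Trpv2 and Pkd2 windows are too.

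Trpv2 was lower in gels, by less than Piezo1. Its libraries were at 133.1 and 141.7 TPM on untreated TC plates and 128.1 and 126.6 TPM on plates with IL-4. The gel libraries lay at 83.8 to 98.4 TPM, all below every plate library. The log2 fold change against untreated plates was -0.57 (SE 0.0699, adjusted p = 7.0e-05) in low-collagen gels and -0.65 (SE 0.0699, adjusted p = 2.8e-05) in high-collagen gels. With IL-4 it was -0.40 (adjusted p = 0.00071) and -0.41 (adjusted p = 0.00060). After rescaling, the untreated values were -0.40 and -0.45, both called, whereas with IL-4 the value in high-collagen gels was -0.17 (adjusted p = 0.12) and that in low-collagen gels was -0.08 and lost its call (adjusted p = 0.43). Trpv2 lies on chromosome 11, 62574486 to 62600515.

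Trpv4 ran the other way. It was at 4.88 and 4.61 TPM on untreated TC plates and 5.36 and 4.70 TPM on plates with IL-4. In low-collagen gels it was at 8.66 and 10.3 TPM untreated and 8.90 and 9.87 TPM with IL-4, and in high-collagen gels at 10.6 and 9.35 TPM untreated and 7.89 and 8.53 TPM with IL-4. The gel and plate libraries did not overlap. The mean was 1.99-fold higher in low-collagen and 2.10-fold higher in high-collagen gels than on untreated plates, with log2 fold changes of 0.86 (SE 0.131, 95% interval 0.57 to 1.15, adjusted p = 0.00031) and 0.93 (SE 0.131, 0.64 to 1.22, adjusted p = 0.00017). With IL-4 the log2 fold changes were 0.78 (adjusted p = 0.00054) and 0.61 (adjusted p = 0.0025). Rescaling raised the 4 values to 1.00, 1.09, 1.06 and 0.82. Trpv4 lies on chromosome 5, 114622152 to 114658421, and shares 0.1% of its 31-base stretches with other genes.

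Trpm7 was somewhat lower in gels. It ranged from 42.0 to 44.9 TPM over the 4 plate libraries and from 27.0 to 37.97 TPM over the 8 gel libraries, without overlap. The log2 fold change was -0.25 (adjusted p = 0.057) and -0.39 (adjusted p = 0.0068) in low-collagen gels and -0.33 (adjusted p = 0.017) and -0.52 (adjusted p = 0.0013) in high-collagen gels, without and with IL-4. These values and the gap between the libraries are to be read beside the shift of the median gene. After rescaling, the values in low-collagen gels were -0.08 and -0.08 and neither was called, and the untreated call was also lost without low-collagen replicate 1 (adjusted p = 0.22), and those in high-collagen gels were -0.14 (adjusted p = 0.19) and -0.28 (adjusted p = 0.017).

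**Figure D4:**
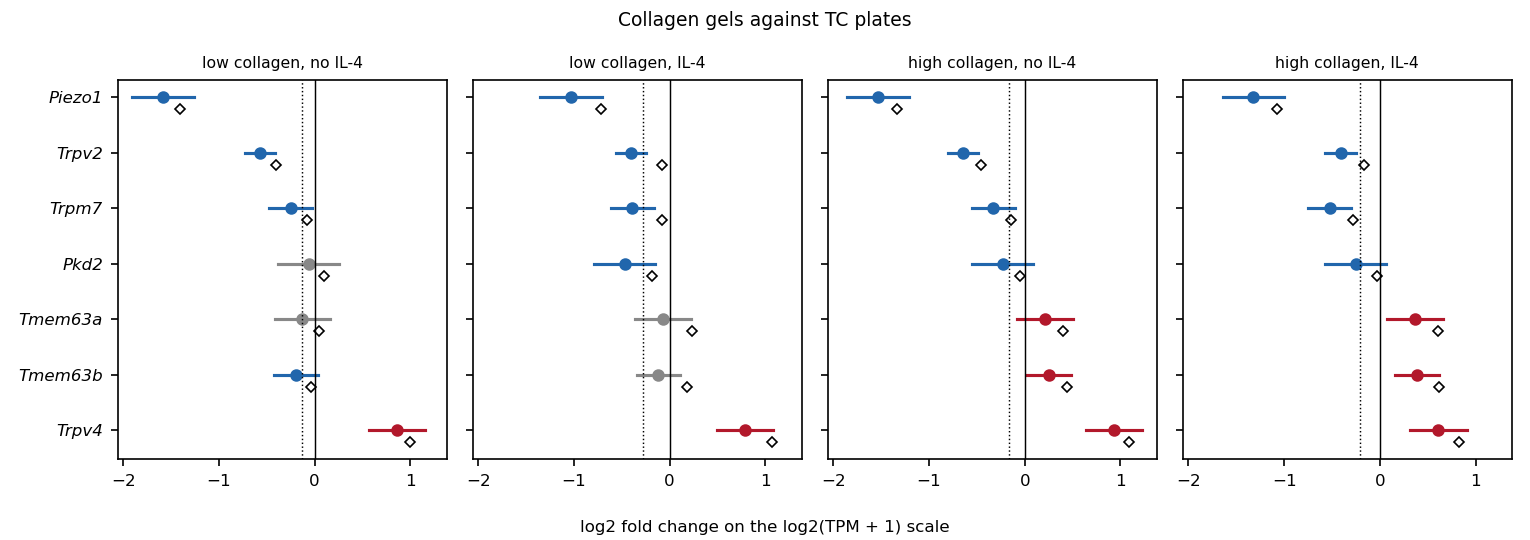
Log2 fold change of 7 channels in collagen gels against TC plates, on the log2(TPM + 1) scale. Filled circles and bars are the estimate and its 95% interval (red, called higher; blue, called lower; grey, not called), open diamonds are the estimates after median-ratio rescaling, and the dotted line is the median of all genes. Piezo1 lies furthest left in all 4 panels and Trpv4 furthest right.

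The TMEM63 genes were the only channels called between low and high collagen, Tmem63a with IL-4 only. Tmem63b was at 15.5 and 16.5 TPM in untreated low-collagen gels and 23.2 and 21.3 TPM in untreated high-collagen gels. With IL-4 it was at 15.04 and 14.4 TPM against 19.9 and 22.8 TPM. The libraries of low and high collagen did not overlap in either case. This did not set Tmem63b apart. Untreated, those of Trpm7, Tmem63a and Pkd2 did not overlap either, and with IL-4 those of Trpv4 and Tmem63a did not. The share of all genes without overlap was not counted. The log2 fold change of high against low collagen was 0.50 with IL-4 (SE 0.107, 95% interval 0.25 to 0.75, adjusted p = 0.042) and 0.45 without (SE 0.107, 0.20 to 0.70, adjusted p = 0.11). Both stayed called after rescaling, at 0.43 and 0.48. The call with IL-4 was lost without high-collagen IL-4 replicate 2 (adjusted p = 0.22) or low-collagen IL-4 replicate 2 (adjusted p = 0.20), and the call without IL-4 was lost whichever of the 4 libraries was left out (adjusted p = 0.23 to 0.33), with the estimates between 0.39 and 0.51 in all of these.

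Tmem63a rose with collagen density in the presence of IL-4, from 19.3 and 17.5 TPM to 24.7 and 25.9 TPM. The difference was 0.44 on the log2 scale (SE 0.134, adjusted p = 0.11), and its call was lost without either high-collagen IL-4 library (adjusted p = 0.23 without replicate 1 and 0.34 without replicate 2) or low-collagen IL-4 replicate 2 (adjusted p = 0.37). Without IL-4 it was at 25.0 and 24.2 TPM in low-collagen gels and 36.1 and 27.2 TPM in high-collagen gels, and the difference of 0.34 was not called (adjusted p = 0.29). Across all genes 14.1% were called higher and 6.99% lower with high than with low collagen in the presence of IL-4, and 3.23% and 4.79% in its absence. Of the 7 channels, 2 were called higher with IL-4 and 1 without, and none lower. Their median log2 fold change was -0.01 with IL-4, beside 0.06 for all genes, and 0.05 without, beside -0.02. Rescaling turned the calls over all genes to 1218 higher and 1350 lower with IL-4, from 1672 and 828, and to 455 and 427 without IL-4, from 383 and 568, and left the calls of the channels in place.

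Piezo1, Trpv2, Trpv4, Trpm7 and Pkd2 were not called between low and high collagen. The 95% interval for Piezo1 was -0.33 to 0.43 without IL-4 and -0.67 to 0.09 with IL-4, and that for Trpv4 was -0.24 to 0.38 and -0.49 to 0.14. Trpv2 had the narrowest intervals of the 7, -0.26 to 0.11 without and -0.19 to 0.17 with IL-4.

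Against plates, the TMEM63 genes were called higher in high-collagen gels. Tmem63b changed by 0.25 without IL-4 (adjusted p = 0.055) and 0.39 with IL-4 (adjusted p = 0.0080), and by 0.44 and 0.62 after rescaling. The call without IL-4 was lost without TC replicate 1 or without high-collagen replicate 1 (adjusted p = 0.24 in both). Tmem63a changed by 0.21 (adjusted p = 0.18) and 0.37 (adjusted p = 0.030), and by 0.40 and 0.61 after rescaling. The first of these rested on 1 library: without untreated high-collagen replicate 1 it was 0.01 (adjusted p = 0.93), without replicate 2 it was 0.41, and it was also lost without TC replicate 1 (0.15). In low-collagen gels Tmem63b was called lower without IL-4, at -0.20 (adjusted p = 0.12), a call that was lost after rescaling (-0.03), without TC replicate 2 (-0.14) and without low-collagen replicate 1 (-0.16), and with IL-4 it was at -0.12 and not called, whereas after rescaling it was called higher (0.18, adjusted p = 0.11). Tmem63a was at -0.13 and -0.07 in low-collagen gels without and with IL-4, not called. After rescaling it was at 0.04, not called, and at 0.23, called higher (adjusted p = 0.14). Tmem63b overlaps the exons of 2 genes on the other strand, Mrpl14, a mitochondrial ribosomal gene, and Gm16172, an antisense gene. Of its 31-base stretches 6.2% occur elsewhere, with 4.5% in Gm16172, whose level was not examined. Mrpl14 was at 55.9 to 72.0 TPM on plates and 80.2 to 102.0 TPM in gels, with log2 fold changes against plates of 0.34 to 0.73, and was not called between low and high collagen (0.12 without and 0.03 with IL-4). The part of Mrpl14 or Gm16172 in the Tmem63b values, against plates or between gels, was not tested.

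IL-4 had its clearest association with Pkd2. Pkd2 was at 15.7 and 15.5 TPM on untreated TC plates and 9.36 and 11.6 TPM with IL-4. In low-collagen gels it was at 14.1 and 15.8 TPM untreated and 8.01 and 6.55 TPM with IL-4. In high-collagen gels it was at 12.6 and 13.7 TPM untreated and 7.81 and 9.46 TPM with IL-4. On every substrate both IL-4 libraries lay below both untreated libraries. This did not set Pkd2 apart, as the libraries of Piezo1 did not overlap on any substrate either, with IL-4 above. The share of all genes without overlap was not counted. The mean was 2.05-fold lower with IL-4 in low-collagen gels (log2 fold change -0.95, SE 0.146, 95% interval -1.29 to -0.61, adjusted p = 0.0025). It was 1.52-fold lower in high-collagen gels (-0.56, SE 0.146, -0.90 to -0.22, adjusted p = 0.038) and 1.49-fold lower on plates (-0.54, SE 0.143, -0.86 to -0.22, adjusted p = 0.023). After rescaling the values were -0.76, -0.46 and -0.48, all still called, and in high-collagen gels the call was lost without IL-4 replicate 1 (adjusted p = 0.20). Pkd2 lies on chromosome 5, 104459450 to 104505819, and shares 1.7% of its 31-base stretches with other genes.

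Pkd2 was called lower in gels than on plates with IL-4 in low-collagen gels (-0.47, adjusted p = 0.016) and, near the threshold, in high-collagen gels (-0.23 without and -0.25 with IL-4, adjusted p = 0.19 and 0.15). It was -0.06 and not called in untreated low-collagen gels. Of these 4 values none was called after rescaling (0.10 in untreated low-collagen gels, and -0.18, -0.05 and -0.03 in the others). In high-collagen gels the untreated call was lost whichever of the 4 libraries was left out (adjusted p = 0.21 to 0.46). The call with IL-4 was lost without TC IL-4 replicate 2 (-0.11) or high-collagen IL-4 replicate 1 (-0.13), and the value was -0.39 without TC IL-4 replicate 1.

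Tmem63a was also lower with IL-4 on each substrate, from 25.7 and 28.3 to 20.6 and 18.1 TPM on plates (log2 fold change -0.46, SE 0.129, adjusted p = 0.029). It was at -0.40 (SE 0.134, adjusted p = 0.056) in low-collagen gels and -0.30 (SE 0.134, adjusted p = 0.18) in high-collagen gels. Both IL-4 libraries lay below both untreated libraries on every substrate, as for Pkd2, and the share of all genes for which they did was not counted. After rescaling the value on plates was -0.40 and stayed called, while those in low- and high-collagen gels were -0.20 and -0.20 and were not. In high-collagen gels the estimate was -0.10 without untreated replicate 1 and -0.50 without untreated replicate 2, and the call was also lost without either IL-4 library (adjusted p = 0.44 and 0.29), and in low-collagen gels the call was lost without IL-4 replicate 2 (adjusted p = 0.24).

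In low-collagen gels Piezo1 rose by 1.54-fold with IL-4 (log2 fold change 0.60, SE 0.164, 95% interval 0.22 to 0.98, adjusted p = 0.027), a call lost with no filter on low values (adjusted p = 0.22). In high-collagen gels it was at 0.26 (adjusted p = 0.32; 0.43 without IL-4 replicate 1 and 0.091 without IL-4 replicate 2) and on plates at 0.05 (adjusted p = 0.84), neither called. After rescaling the Piezo1 values were 0.81 in low-collagen gels (adjusted p = 0.017, limma), 0.36 in high-collagen gels and 0.11 on plates. Only the first was called, and it was larger in size than that of Pkd2 there (-0.76). For Ctu2 the IL-4 difference was called on all 3 substrates (0.58 in low-collagen gels, 0.79 in high-collagen gels and 0.91 on plates). The IL-4 response of Piezo1 in low-collagen gels exceeded that on plates by 0.55 (SE 0.203, 95% interval 0.10 to 1.01, adjusted p = 0.12, an interaction term in the 12-library fit). This comparison was added after the values were seen, and 9.3% of genes were called higher and 18.7% lower in it. It was called for 1 of the 7 channels, Piezo1, and for 2 after rescaling, Piezo1 (0.69) and Trpv2 (0.32). In the same comparison for high-collagen gels, where 8.66% of genes were called higher and 8.61% lower, 0 of the 7 were called by limma and 1 (Trpv2) had an unadjusted p under 0.05. Trpm7, Trpv4, Trpv2 and Tmem63b were not called for IL-4 on any substrate, with log2 fold changes of -0.25 to 0.13.

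Across all genes IL-4 was associated with 14.7% called higher and 24% lower on plates, 13.2% and 40.4% in low-collagen gels, and 11.5% and 22.8% in high-collagen gels. Of the 7 channels 2 were called lower on plates, 1 higher and 2 lower in low-collagen gels, and 2 lower in high-collagen gels. Their median log2 fold change was -0.11, -0.11 and -0.20, beside -0.06, -0.19 and -0.10 for all genes. Rescaling changed the calls over all genes from 1567 higher and 4784 lower to 2791 and 2497 in low-collagen gels, from 1366 and 2698 to 1989 and 1766 in high-collagen gels, and from 1745 and 2853 to 2236 and 2403 on plates. With it Trpv2 was called higher for IL-4 in both kinds of gel (0.27 in low and 0.23 in high collagen).

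**Figure D5:**
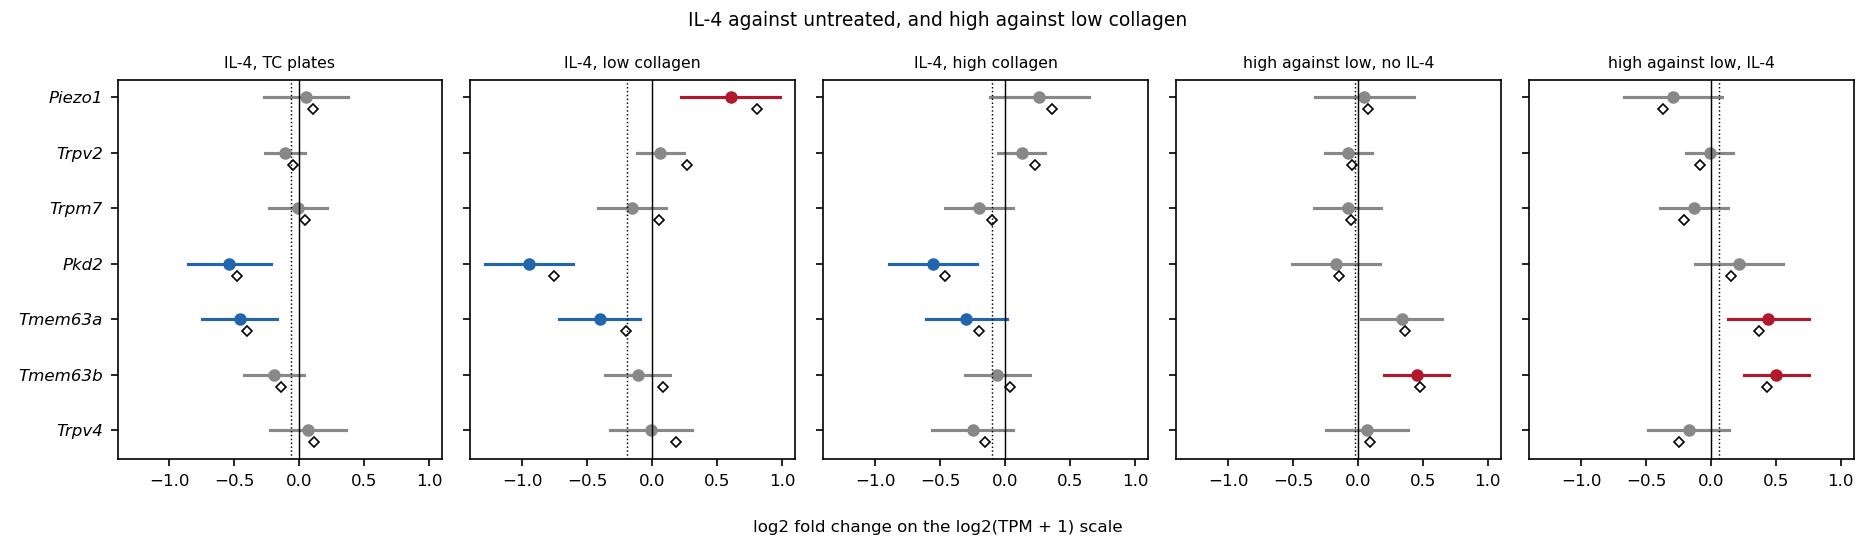
Log2 fold change of 7 channels with IL-4 against untreated on each substrate (3 panels on the left) and in high- against low-collagen gels (2 panels on the right), on the log2(TPM + 1) scale. Symbols, bars and colours are estimates, 95% intervals and calls (red higher, blue lower, grey not called), open diamonds are the estimates after median-ratio rescaling, and the dotted line is the median of all genes. Pkd2 and Tmem63a are blue in the 3 IL-4 panels and Tmem63b is red in both collagen panels.

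Whether the response to IL-4 depended on collagen density was tested as an interaction within the 8 gel libraries. For the 7 channels 0 were called by limma, and 0 had an unadjusted p under 0.05. Over all 11852 genes tested 0.194% were called higher and 0.169% lower, with 1171 at an unadjusted p under 0.05. The lowest adjusted p among the channels was that of Pkd2 (0.39, 95% interval -0.09 to 0.87, adjusted p = 0.57), and the estimate for Piezo1 was -0.34 (-0.88 to 0.20), which moved between -0.52 (without low-collagen IL-4 replicate 1) and -0.16 (without low-collagen IL-4 replicate 2) when 1 library was left out. The upper limit for Pkd2 is larger in size than its IL-4 difference in high-collagen gels (-0.56).

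Few other channels of these kinds were expressed. Of 24 other TRP family genes 18 stayed under 1 TPM in every library and 5 were tested: the lysosomal channels Mcoln1, Mcoln2 and Mcoln3, the ADP-ribose-gated Trpm2 and the calcium-activated Trpm4. Trpm1 had a mean above 1 TPM in high-collagen gels with IL-4 (1.30 TPM) and in no other condition. Mcoln2 fell in gels against plates in all 4 comparisons (log2 fold change -0.74 and -0.79 with low collagen, and -1.03 and -1.05 with high collagen) and rose with IL-4 on every substrate (0.62 on plates, 0.57 and 0.60 in low- and high-collagen gels). Trpm2 was called lower with IL-4 in low- and high-collagen gels (-1.32 and -0.92). In the 4 comparisons of gels with plates, 1 or 2 of the 5 were called higher and 1 or 2 lower, beside 22.8% to 28.5% and 44.3% to 52.2% of all genes, and after rescaling 2 or 3 higher and 1 lower.

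Of 18 other mechanically or swelling gated channels, among them the hearing channels Tmc1 and Tmc2 and the potassium channels Kcnk2, Kcnk4 and Kcnk10, 12 stayed under 1 TPM in every library. The 6 tested were the volume-regulated anion channel subunits Lrrc8a to Lrrc8d, the ATP-release channel Panx1 and Tmem87a. In each of the 4 comparisons of gels with plates 4 of the 6 were called lower, beside 44.3% to 52.2% of all genes, and 0 to 2 were called higher. After rescaling 2 to 4 were called lower and 1 or 2 higher. Panx1 was at a mean of 66.1 TPM on untreated plates and 24.6 TPM in untreated low-collagen gels (log2 fold change -1.41, SE 0.203, adjusted p = 0.00021). Lrrc8b was lower in untreated gels (-1.28 in low and -1.21 in high collagen) and higher with IL-4 in gels (0.81 and 0.66). Between high and low collagen 0 of the 6 were called with IL-4 by limma and 1 without, Tmem87a (-0.35, adjusted p = 0.14).

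Among 9 partners and regulators of the channels, 7 were tested, and 5 or 6 of them were called lower and 1 or 2 higher in gels than on plates in each of the 4 comparisons, where 44.3% to 52.2% of all genes were lower. After rescaling 4 or 5 were lower and 1 or 2 higher. The lower ones include Atp2a2, the endoplasmic reticulum calcium pump that binds PIEZO1, at 120.8 TPM on untreated plates and 47.3 TPM in untreated low-collagen gels (log2 fold change -1.34, adjusted p = 1.1e-06). Mdfic, an auxiliary subunit of PIEZO channels, fell from 121.7 to 68.7 TPM (-0.82, adjusted p = 5.9e-06). Pkd1, whose product pairs with polycystin-2, was called lower with IL-4 on plates (-0.47), in low-collagen gels (-0.67) and in high-collagen gels (-0.47), the comparisons in which Pkd2 was called lower. Pacsin3, which binds TRPV4, was called lower with IL-4 in low-collagen gels (-0.82) and higher in high- than in low-collagen gels with IL-4 (0.87), at means of 0.76 to 2.83 TPM.

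Of 24 calcium entry, store and pump genes 19 were tested within the gels and 20 over all libraries. In gels against plates 10 to 12 of the 20 were called lower and 4 or 5 higher, beside 44.3% to 52.2% lower and 22.8% to 28.5% higher over all genes, and after rescaling 7 to 11 lower and 5 to 10 higher, so the balance of this group depends on the scale. Kcnn4, the calcium-activated potassium channel, was at 176.7 TPM on untreated plates and 49.0 TPM in untreated low-collagen gels (log2 fold change -1.83, adjusted p = 1.8e-07), and Mcu, the pore of the mitochondrial calcium uniporter, was lower in gels with IL-4 (-1.57 in low and -1.69 in high collagen). With IL-4, 11 of 20 were called lower and 1 higher on plates, 10 of 19 lower and 2 higher in low-collagen gels, and 9 of 19 lower and 1 higher in high-collagen gels. The shares called lower over all genes were 24%, 40.4% and 22.8%. After rescaling 11, 5 and 7 were called lower and 1, 5 and 2 higher. Slc8a1, a sodium-calcium exchanger, fell on every substrate (-1.11 on plates, -1.70 and -1.24 in low- and high-collagen gels) and was higher in high- than in low-collagen gels with IL-4 (0.94, adjusted p = 0.023) and without (0.48, adjusted p = 0.20).

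Of 19 calcium dependent effectors, the calmodulin kinases, calcineurin subunits, NFAT factors and calpains, 16 were tested. In gels against plates 9 to 15 were called lower and 0 higher, beside 44.3% to 52.2% and 22.8% to 28.5% of all genes, and after rescaling 8 to 11 lower and 1 or 2 higher. Camk2d, a calmodulin-dependent kinase, had the largest change in each of the 4 comparisons (-1.26 to -1.86), and Capn2, a calpain, changed by -0.99 to -1.09. With IL-4, Nfatc2 fell on plates (-0.94), in low-collagen gels (-1.28) and in high-collagen gels (-0.82).

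Across the 12 libraries the levels of Piezo1 and Trpv2 ran together (Pearson r = 0.96) and both ran against Trpv4 (r = -0.92 and -0.97), and those of Tmem63a and Tmem63b had r = 0.83. The points are the same libraries in pairs of a condition and fall into plates and gels, so these values describe the pattern given above. The gene most like Piezo1 among 9670 genes with a mean of at least 5 TPM was Rpl27 (r = 0.988), followed by Ece2 (0.984) and Gipc1 (0.983). For Trpv2 they were Park7 (0.987), Zwilch (0.985) and Npy (0.984), and for Trpv4 Slc38a9 (0.979), Bckdha (0.973) and Atraid (0.969). For Trpm7 they were Pnn (0.974), Blzf1 (0.970) and Sirt1 (0.969), and for Pkd2 Morc3 (0.973), Wsb1 (0.966) and Cep83 (0.965). The TMEM63 genes had no gene as close: Kif3c (0.943), Prex1 (0.931) and Adamts10 (0.922) for Tmem63a, and Klhl25 (0.916), Golga4 (0.891) and Uimc1 (0.886) for Tmem63b.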

How the data were processed

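RNA of BMDMs was sequenced by the authors on an Illumina NextSeq (TruSeq stranded mRNA, paired reads of 38 bases). The authors quantified transcripts with kallisto 0.46.1 on the Ensembl release 90 GRCm38 cDNA set and deposited TPM per gene in 12 libraries. TPM keep no read number, so no count test was possible, and levels are shares of a library. Repeated lines (129) were collapsed, leaving 34327 genes. Groups were taken from the sample labels.

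Values were tested as log2(TPM + 1) with limma 3.58.1 (R 4.3.3; one mean per condition, trended eBayes), for genes whose mean reached 1 TPM over the fitted libraries: 11852 genes in the 8 gel libraries for comparisons within gels, and 11865 in all 12 for comparisons with plates. Calls were made at a Benjamini-Hochberg adjusted p under 0.2. Intervals are 95%. The fit was tested on simulated data. Overlap with other genes was counted in 31-base words of GENCODE transcripts, and promoter windows came from RefSeq. The channels and gene lists were chosen with earlier results of these data known. Of each other list, at most the 3 called genes with the largest change in a comparison are named (1 such gene is not reported here), and for each called channel the 3 genes with the highest Pearson r; TATAAA, Ctu2, Mrpl14 and the differences in IL-4 response between gels and plates were added after the values were seen. Alternatives were the pseudocount (0.1), the filter (none, or 5 TPM), no trend, median-ratio rescaling, a replicate block, an adjusted p under 0.05, other libraries in the fit, each library left out, and, added after the values were seen, corrections for GC content and length, and crossed replicate numbers. Itgam is listed under 2 identifiers and the higher was used. Replicate numbers follow the order of the sample titles and did not pair the libraries.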

Additional observations from a re-analysis of the deposited data

Results flagged for a closer look

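The IL-4 response of Piezo1 differed between low-collagen gels and TC plates. The log2 fold change with IL-4 was 0.60 in low-collagen gels and 0.05 on plates. The difference, tested as an interaction term with limma, was 0.55 (95% interval 0.10 to 1.01, adjusted p = 0.12), and 0.69 after rescaling (adjusted p = 0.090). The comparison was chosen after the values were seen. It was lost (adjusted p = 0.21 to 0.32) when any of the 4 plate libraries, low-collagen untreated replicate 2 or low-collagen IL-4 replicate 2 was left out, with estimates of 0.37 to 0.57, and it was also lost with no filter on low values (adjusted p = 0.44).

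For the overlapping gene Ctu2 the same difference was not called by limma. Its IL-4 response in low-collagen gels was -0.33 relative to that on plates (95% interval -1.10 to 0.45, adjusted p = 0.59). That interval is wide and overlaps the one of Piezo1, and the part of Ctu2 in the Piezo1 difference was not tested.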

How the results depend on the processing

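Of 986 values of single channels under other settings, 870 kept their direction and their side of the threshold. Another 71 lost their call and 6 gained one, with the direction kept. The other 39 changed sign, and all of these were uncalled as reported. Among them, Tmem63a and Tmem63b in low-collagen gels against plates with IL-4 were called higher after rescaling. The filter, the trend, the threshold of 0.05, the replicate blocks, and fitting all or only the compared libraries leave a channel's log2 fold change as it is. Under those settings the direction could not change, so they bear on the call only. All sign changes came from rescaling, the GC content and length correction, or leaving out a library. The lower Piezo1 and the higher Trpv4 in gels against plates, and the lower Pkd2 with IL-4 on plates and in low-collagen gels, kept direction and call under every setting run. The causes of the changes below were not tested.

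The number of channels called changed as follows. With no filter on low values it was 1 for IL-4 in low-collagen gels, 1 for IL-4 in high-collagen gels, 1 for high against low collagen with IL-4, 0 without IL-4 and 0 for the IL-4 difference between low-collagen gels and plates; that setting tested many more genes. Without the mean-variance trend it was 1 for IL-4 in high-collagen gels. At an adjusted p under 0.05 it was 1 for IL-4 in high-collagen gels, 1 and 0 for high against low collagen with and without IL-4, 3 and 4 for low- and high-collagen gels against plates without IL-4, and 0 for the IL-4 difference between low-collagen gels and plates. After rescaling it was 3 for low-collagen gels against plates without IL-4 and 2 for the IL-4 difference between low-collagen gels and plates, and with the fit limited to the compared libraries 1 for that difference in high-collagen gels. Leaving out 1 library at a time gave 0 to 2 for IL-4 in high-collagen gels, 0 to 2 and 0 in all cases for high against low collagen with and without IL-4, 3 to 5 and 4 to 6 for low- and high-collagen gels against plates without IL-4, and 0 to 2 and 0 to 1 for the IL-4 differences of low- and high-collagen gels from plates; in these fits a lone library is assumed to vary like the others.

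Values that changed sign after rescaling were, for IL-4 in low-collagen gels, Trpv4 (0.18), Trpm7 (0.050) and Tmem63b (0.085); for IL-4 in high-collagen gels Tmem63b (0.040); for IL-4 on plates Trpm7 (0.049); for the interaction Trpv2 (-0.039) and Tmem63b (-0.045); and for low-collagen gels against plates Tmem63a (0.041 without and 0.23 with IL-4), Pkd2 (0.10 without) and Tmem63b (0.18 with). With the GC content and length correction they were Trpv4 (0.026) and Trpm7 (0.018) for IL-4 in low-collagen gels, Trpv2 (0.0057) and Piezo1 (-0.051) for high against low collagen with and without IL-4, and Pkd2 (0.076) for low-collagen gels against plates without IL-4. Leaving out 1 library at a time moved across 0 the values of Piezo1 (-0.099 to 0.20), Trpv2 (-0.15 to 0.00013) and Trpv4 (-0.040 to 0.18) for high against low collagen without IL-4, and of Trpm7 (-0.28 to 0.015) and Trpv2 (-0.042 to 0.022) with IL-4. It did so for Pkd2 (-0.14 to 0.015) and Tmem63a (-0.16 to 0.018) for low-collagen gels against plates without and with IL-4, for Tmem63b (-0.15 to 0.036) for IL-4 in high-collagen gels, for Trpv2 (-0.012 to 0.14) and Trpv4 (-0.12 to 0.10) for IL-4 in low-collagen gels, for Trpm7 (-0.055 to 0.038) and Trpv4 (-0.011 to 0.15) for IL-4 on plates, and for the interaction of Tmem63a (-0.095 to 0.30), Tmem63b (-0.044 to 0.15), Trpm7 (-0.19 to 0.096) and Trpv2 (-0.010 to 0.14).

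The titles number the libraries consecutively, and the replicate numbers used here follow that order within each condition. Differences between replicates so numbered correlated at -0.12 to 0.11 over 15 pairs of conditions (median -0.0030), so the numbers showed no pairing. With the replicate block the number of channels called did not change in any comparison (3 and 2 for IL-4 in low- and high-collagen gels, 5 and 5 for low-collagen and 7 and 7 for high-collagen gels against plates), no single channel's call changed, and over all genes the calls went from 951 to 586 for high against low collagen without IL-4 and from 43 to 18 for the interaction. Crossing the numbers, as added after the values were seen, gave 3 channels for IL-4 in low-collagen gels and 2 on plates.

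Over all genes the other counts of calls that moved by over 1.5 times were as follows. For high against low collagen with IL-4, 2500 calls became 970 with no filter, 561 at an adjusted p under 0.05 and 715 to 1427 without any 1 library. Without IL-4, 951 became 307, 63, 548 without the trend, and as few as 138 without 1 library. For the interaction, 43 became 155 with no filter, 7 at 0.05, 26 without the trend, 95 with all 12 libraries and as few as 10 without 1 library. For IL-4, 6351 in low-collagen gels became 3656 at 0.05 and 4218 without IL-4 replicate 2, 4064 in high-collagen gels became 2403 with no filter, 1890 at 0.05, and 2578 and 2470 without untreated or IL-4 replicate 1, and 4598 on plates became 2710 at 0.05. For the IL-4 difference from plates, 3319 in low-collagen gels became 1920 and 1220, and 2050 in high-collagen gels became 1242, 792 and, without TC replicate 1, 1352.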
